A study of Callithrix jacchus with 39 samples.

Results

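The regions described here were marked by H3K27ac in 6, 7 or 8 of the 8 marmoset tissues profiled and overlapped no H3K4me3 peak in any library. They are called members below. An H3K27ac peak was kept where it overlapped a peak of the other replicate of its tissue by at least 1 bp, and the kept peaks of all tissues were merged into a catalogue of 65161 regions. Of these, 41524 overlapped no H3K4me3 peak of any of the 15 H3K4me3 libraries and are called enhancer-like, and 23637 did overlap one and are called promoter-like. The members are the 377 enhancer-like regions found in 6 or more tissues, 0.908% of the enhancer-like regions. Because H3K27ac presence and H3K4me3 absence chose them, the number of tissues, the missing tissue, the peak ranks, the region lengths and the gaps to H3K4me3 are given as descriptions with no test.

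The tissues were colon, stomach, liver, pancreas, kidney, spleen, heart and skeletal muscle of Callithrix jacchus, the common marmoset, a New World primate, and they were profiled by ChIP-seq, in which DNA bound by an antibody is sequenced. For both marks the labels number 2 replicates of a tissue, but for heart H3K4me3 there is replicate 2 alone, giving 16 H3K27ac and 15 H3K4me3 peak lists. The 8 input samples were not analysed here. The title of the series names enhancers that emerged recently and how much they vary between individuals. The labels used here give no treatment, age or animal identity, so replicates may come from the same animal and the p-values measure only the spread between these tissues' maps. The tissue labels could not be checked against marker genes, because no annotation of the build of the files, calJac3, was used here. For the same reason no region was assigned to a gene and none of its sequence is shown.

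H3K27ac is an acetylation of histone H3 found at active promoters and at active enhancers, the distal elements that raise transcription of genes elsewhere on the chromosome. H3K4me3 is a methylation of the same histone concentrated at the start sites of transcribed genes. A region with H3K27ac and without H3K4me3 is therefore commonly taken as a candidate enhancer. Promoters of housekeeping genes are active in most tissues, whereas enhancer activity usually differs between cell types.

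H3K27ac lists held 24590 to 51554 peaks and H3K4me3 lists 16386 to 24424 peaks. Read totals were not used here, so depth is unknown, and absence of a mark means only that no peak was called. In whole tissue, a mark carried by fewer cells and a weaker mark in every cell cannot be told apart.

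Regions without H3K4me3 became rarer with every added tissue. Of catalogue regions found in 1 tissue, 84.9% overlapped no H3K4me3, and the share was 68.3% at 2 tissues, 51.5% at 3, 36.8% at 4 and 22.8% at 5. It was 12.9% at 6 tissues, 5.66% at 7 and 0.685% at 8. Acetylation in all 8 tissues was thus nearly always accompanied by an H3K4me3 peak in some library. Median length of enhancer-like regions was 762 bp at 1 tissue and 2527 bp at 8. The part of region length in these shares was not tested. Among the members, 209 were found in 6 tissues (55.4%), 117 in 7 (31.03%) and 51 in 8 (13.5%). The 11125 catalogue regions of the same breadth comprised these 377 and 10748 promoter-like regions, so 3.39% lacked H3K4me3.

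At the edge set by breadth, the 209 members found in 6 tissues had a median length of 2259 bp and the 398 enhancer-like regions found in 5 tissues had a median of 1992.5 bp. Their median gaps to H3K4me3 were 9666 bp in 6 tissues and 11620 bp in 5 tissues. At the edge set by H3K4me3, 4 members had an H3K4me3 peak within 100 bp, and 1 promoter-like region of the same breadth was overlapped by H3K4me3 over 100 bp or less. H3K4me3 of a single library kept 156 of the 10748 promoter-like regions out of the membership. Liver replicate 2 did so for 66 of them, spleen replicate 1 for 35, colon replicate 2 for 20 and skeletal muscle replicate 2 for 19. Without the H3K4me3 list of liver replicate 2 the members would have numbered 443. At the other end, 8762 promoter-like regions (81.5%) were overlapped by H3K4me3 in all 15 libraries.

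The members were long regions, built from peaks that covered only part of them in any one library. Their length ran from 536 to 9303 bp with a median of 2368 bp and quartiles of 1723 and 3219 bp. Median lengths were 1697.5 bp in enhancer-like regions of 3 to 5 tissues, 1221.5 bp at 2 tissues and 762 bp at 1 tissue, and 1948 bp in promoter-like regions of 6 to 8 tissues. A merged region can only lengthen as tissues are added, so this order is partly set by the merging. The peaks of 1 library covered a median of 51.5% of a member, and 39.8% of member and library pairs with a peak had 2 or more peaks, up to 8.

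Merging can also chain peaks of different tissues that never meet at 1 base. Of the 377 members, 337 (89.4%) had at least 1 base covered by kept peaks of 6 or more tissues, against 99.02% of promoter-like regions of the same breadth. The share over both classes was 98.7%. In these 337 members the length covered by 6 or more tissues had a median of 675 bp, with quartiles of 492 and 1010 bp. This length was added up over the member and need not form 1 stretch. The remaining 40 members were chained, with at most 5 tissues over any base in 33 of them, 4 tissues in 6 and 3 tissues in 1. At least 1 base shared by 6 or more tissues was thus found in 337 members rather than in all 377.

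The longest members show how such regions are built. The longest of all lay on chromosome 11 from 9228465 to 9237767 (all coordinates calJac3, counted from 1), spanned 9303 bp and lacked colon, and at most 6 of its 7 tissues met over 1 base. The next, on chromosome 5 from 84075193 to 84084278, spanned 9086 bp in all 8 tissues, with 2782 bp covered by 6 or more of them. Another, on chromosome 7 from 74940972 to 74947972, spanned 7001 bp and lacked heart and skeletal muscle. Only 516 bp of that region were covered by 6 tissues, so most of its length belonged to fewer.

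The tissue most often missing was colon. It was missing from 120 members (31.8%), followed by heart and skeletal muscle with 99 each (26.3%), spleen with 74 (19.6%) and kidney with 52 (13.8%). Stomach was missing from 35 members (9.28%), liver from 34 (9.02%) and pancreas from 22 (5.84%). Among the promoter-like regions of the same breadth the order differed. There skeletal muscle was missing most often, from 10.5%, then spleen from 8.91%, heart from 7.46%, colon from 6.26% and kidney from 6.20%. Stomach was missing from 2.12% of them, liver from 1.49% and pancreas from 1.34%. Pancreas and liver were thus missing least often in both classes, and colon moved to the top among the members.

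The length of the peak lists is given beside these counts, and its part in them was not tested. Heart had the shortest H3K27ac lists, with 26689 and 24590 peaks, while colon had 40507 and 35220 peaks, more in each library than either stomach list (30803 and 31573 peaks). Liver had the longest lists (46317 and 51554 peaks) and pancreas had 38827 and 37291 peaks. Of these tissues, heart was missing from 26.3% of members, colon from 31.8%, stomach from 9.28%, liver from 9.02% and pancreas from 5.84%.

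Many missing tissues had a peak after all, in 1 library. The 377 members had 535 missing tissues in total, since each region found in 6 tissues lacks a pair. In 251 of these neither library had a peak, in 249 a single library had one, and in 35 both libraries had peaks that did not overlap each other. At least 1 library thus had a peak for 53.1% of missing tissues in members, and for 72.6% in promoter-like regions of 6 or 7 tissues. Among the tissues, this share in members was highest for pancreas at 90.9% and kidney at 82.7%, and lowest for skeletal muscle at 37.4% and colon at 39.2%. In promoter-like regions it was 94.4% for pancreas, 92.9% for kidney, 57.1% for skeletal muscle and 59.9% for colon. The same tissues thus stood at the ends in both classes. In members, colon accounted for 73 of the 251 cases with no peak in either library and skeletal muscle for 62, against 2 for pancreas and 9 for kidney.

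Single-library peaks were unevenly split between replicates in several tissues. For kidney, 8 missing members had a peak in replicate 1 alone and 29 in replicate 2 alone. For spleen the split went the other way, with 27 in replicate 1 alone and 6 in replicate 2 alone. For pancreas the counts were 3 in replicate 1 and 15 in replicate 2. Heart was nearly even, with 28 and 25. The split was not counted in promoter-like regions, so it cannot be called particular to members. Counting every peak, kept or not, 61 members had a peak in all 16 H3K27ac libraries, and these include the 51 found in 8 tissues and others whose missing tissues had peaks in both libraries that did not overlap. By the same count, 53 had a peak in 12 libraries, the fewest.

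**Figure D1:**
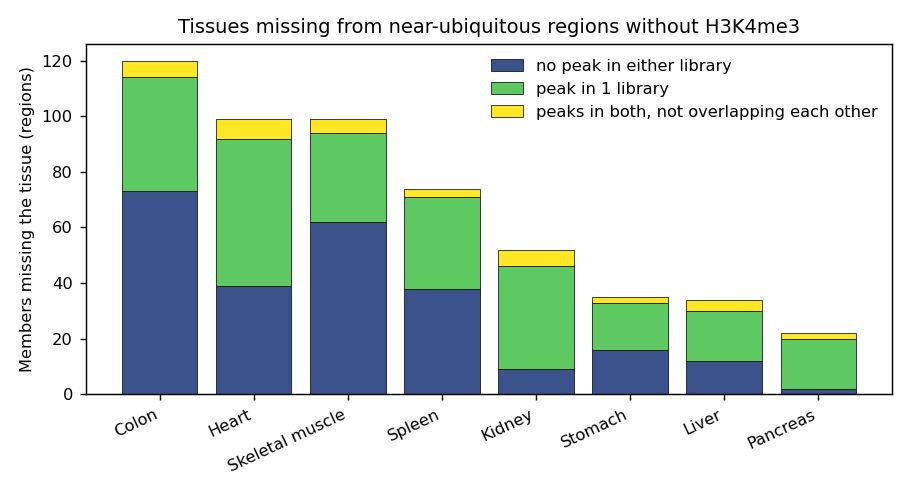
Number of members missing each tissue (y axis, regions), ordered by that number and split by what the tissue's 2 H3K27ac libraries held. Colon is missing from 120 members and pancreas from 22, and the part with no peak in either library is 73 for colon and 2 for pancreas.

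The 209 members found in 6 tissues each lacked a pair of tissues. Heart and skeletal muscle, the striated muscles, formed the most frequent pair, missing together from 30 members (14.4%) and from 12.9% of the promoter-like regions found in 6 tissues. Colon and stomach, both gut tissues, came next with 26 members (12.4%), against 5.83% of the promoter-like regions. Colon and skeletal muscle were missing together from 20 members (9.57%) and heart and spleen from 19 (9.09%), against 7.04% and 12.4% of the promoter-like regions. The 35 members without stomach included 26 of this colon and stomach pair, and 1 member lacked stomach alone.

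A single tissue was missing from 117 members, and these differ in how strongly the other tissues were marked. Strength is given as a percentile, the rank of the strongest peak of a library in the region by the authors' fold enrichment among all peaks of that list, where 100 is the strongest. Colon alone was missing from 36 members, spleen from 22, skeletal muscle from 21, heart from 17, liver from 10, kidney and pancreas from 5 each and stomach from 1. The regions named here are, for each tissue, the member lacking it alone whose weakest library ranked highest.

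Without colon, a region on chromosome 5 from 60425498 to 60428300 ranked between the 50.7th percentile (colon replicate 2, the single colon library with a peak) and the 90.4th percentile (kidney replicate 1), with a median of 65.8. Without liver, a region on chromosome 1 from 26366181 to 26368835 had no liver peak in either library and percentiles of 33.5 (colon replicate 1) to 93.9 (pancreas replicate 1) elsewhere, with a median of 73.3. Without spleen, a region on chromosome 16 from 88019055 to 88022398 had no spleen peak and percentiles of 44.7 to 87.9 elsewhere, with a median of 71.6. In the liver and spleen cases no peak was thus called in either library of the missing tissue. In the other 14 libraries the percentiles started at 33.5 (liver case) and 44.7 (spleen case).

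Without skeletal muscle, a region on chromosome 16 from 52359677 to 52361870 had percentiles of 47.2 to 88.7 and a median of 59.1, with no peak in either skeletal muscle library. The regions without heart (chromosome 13, 36776329 to 36780090), kidney (chromosome 7, 71872116 to 71874121) and pancreas (chromosome 7, 49722562 to 49726775) each had a peak in 1 library of the missing tissue. Their absence from the tissue thus rested on 1 replicate. The region without stomach, on chromosome 5 from 76461601 to 76462860, was weak in most tissues, with percentiles of 0.927 (skeletal muscle replicate 1) to 69.6 (spleen replicate 2) and a median of 21.6.

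The members' acetylation was of middle rank, well below that of promoter-like regions of the same breadth. Over the members with a peak in a library, the median percentile lay between 38.8 (heart replicate 2) and 66.7 (spleen replicate 1), and that of promoter-like regions between 76.8 and 88.6. Enhancer-like regions of 3 to 5 tissues had medians of 29.97 to 54.0. Members ranked above these in every library outside colon. In colon the medians of members were 52.5 and 44.9, against 54.0 and 45.9 in regions of 3 to 5 tissues. In kidney replicate 1 the medians were close, 43.6 in members against 42.8. The rank is that of the strongest peak in a region, and longer regions can hold more peaks. Members were longer, and the part of length in these ranks was not tested. Few members reached the 90th percentile of a list, from 0 in heart replicate 2 to 16 in spleen replicate 1.

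The spleen libraries stood apart from each other in this respect. The members' median percentile was 66.7 in spleen replicate 1 and 49.4 in spleen replicate 2, and their median peak length was 866 bp in replicate 1 and 597 bp in replicate 2. With ranks averaged over replicates and a library without a peak set to 0, spleen was also the tissue where most members ranked highest, 84 of 377 (22.3%), followed by liver and pancreas with 57 each (15.1%), and last by heart with 21 (5.57%). Among promoter-like regions liver led with 28.4%, and spleen had 11.6%. Without spleen replicate 1, 62 members (16.4%) ranked highest in spleen, against 12.2% of promoter-like regions. Without spleen replicate 2, 140 members did (37.1%), against 18.9% of promoter-like regions. These values were added after the counts had been seen.

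Regions present in nearly all tissues still differed in rank from tissue to tissue. Over the 377 members, with libraries without a peak ranked lowest, Spearman's rho between libraries of different tissues averaged 0.173 over 112 pairs (-0.138 to 0.493). Between replicates of a tissue it averaged 0.696 over 8 pairs (0.591 to 0.792), and all 8 replicate pairs lay above all 112 others. Libraries without a peak enter these ranks, and their part in the difference was not tested. The 51 members found in all 8 tissues were therefore also taken alone. There rho averaged 0.275 between tissues and 0.692 between replicates, and 7 of 8 replicate pairs lay above all pairs of different tissues. In the 7391 promoter-like regions found in 8 tissues rho averaged 0.598 between tissues and 0.763 between replicates. These correlations are over regions, which are not independent and were chosen on the same peaks, so they carry no p.

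In single regions the same contrast appeared as spread. The percentile of the 51 members, averaged over the replicates of each tissue, spanned a median of 48.6 points between the highest and lowest tissue (quartiles 38.5 and 62.2). Between single libraries of different tissues the percentile of a member differed by a median of 19.9 points, and between replicates of a tissue by 12.1 points. A single member of the 51 lay above the 50th percentile in all 16 libraries. Members called in every tissue thus still differed in rank between tissues by more than between replicates.

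**Figure D2:**
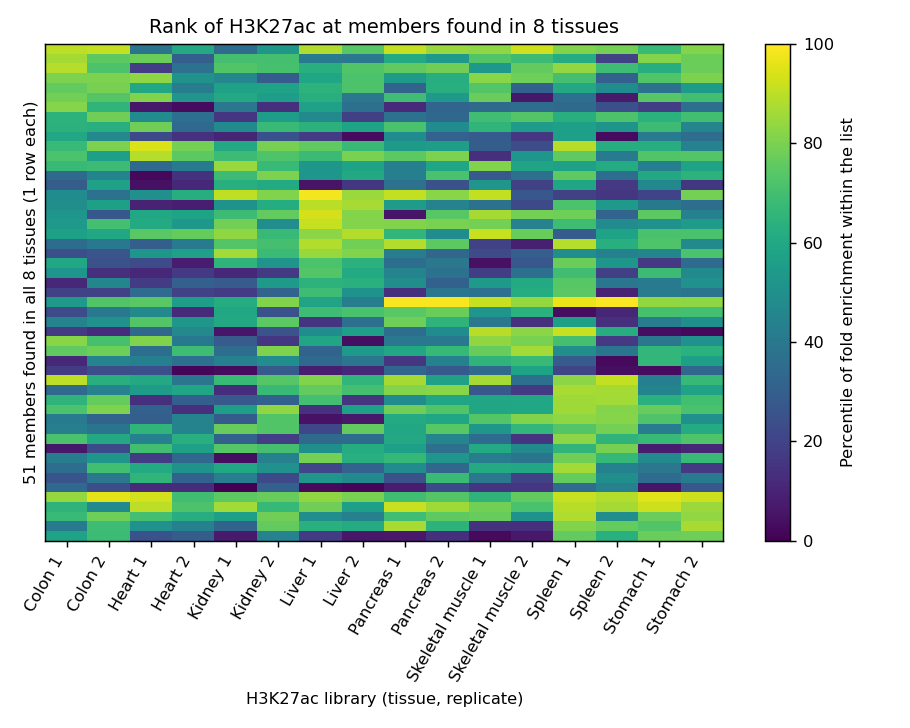
Percentile of fold enrichment within each list (colour, 0 to 100) for the 51 members found in all 8 tissues (rows) in the 16 H3K27ac libraries (columns). Rows are grouped by the tissue of highest rank, and neighbouring columns of 1 tissue are more alike (mean rho 0.692) than columns of different tissues (mean rho 0.275).

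Among the members found in all 8 tissues, the one whose weakest library ranked highest lay on chromosome 7 from 66164202 to 66165759. Over 1558 bp it had a peak in all 16 libraries, with percentiles of 64.8 (skeletal muscle replicate 1) to 95.9 (colon replicate 2) and a median of 81.5. It was the member above the 50th percentile in every library, 1187 bp of it were covered by 6 or more tissues, and the nearest H3K4me3 peak was 8233 bp away. The strongest summits of its libraries lay within 256 bp of one another.

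Among the 8 members whose weakest library ranked highest, surroundings differed widely. On chromosome 22, the region from 17253546 to 17255309 lay 84 bp from an H3K4me3 peak and had percentiles of 47.5 (colon replicate 2) to 92.5 (stomach replicate 1), with a median of 81.7. On chromosome 5, the region from 42703554 to 42706633 lay 146652 bp from any H3K4me3 peak and had percentiles of 44.2 (skeletal muscle replicate 2) to 91.2 (liver replicate 1), with a median of 65.1. Both were thus found in all 8 tissues, one beside and one far from H3K4me3, and each fell below the 50th percentile in at least 1 library.

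A longer member on chromosome 7 from 46522538 to 46528973 covered 6436 bp at 1245 bp from H3K4me3, with a median percentile of 69.6. Another member of chromosome 22, from 38295067 to 38298811, lay 612 bp from H3K4me3, with percentiles of 37.0 (skeletal muscle replicate 2) to 90.9 (spleen replicate 2). On chromosome 2, the region from 46873902 to 46877743 lay 15296 bp from H3K4me3, with percentiles of 34.1 (heart replicate 1) to 84.4 (kidney replicate 1). The remaining pair lay on sequences outside the assembled chromosomes, where a gap to H3K4me3 is limited by the length of the sequence. The longer, of 4246 bp, had percentiles of 42.5 (liver replicate 2) to 99.5 (spleen replicate 2), with a median of 82.0. The shorter, of 890 bp, had percentiles of 35.2 (kidney replicate 1) to 92.6 (skeletal muscle replicate 2), with a median of 81.4.

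The members lay closer to H3K4me3 than enhancer-like regions of fewer tissues did. The gap comes from the same peak positions that chose the members, so it is given as a description with no test. Over 373 members on sequences with any H3K4me3 peak, the gap to the nearest peak of any library had a median of 9370 bp and quartiles of 3321 and 28724 bp. Medians were 14292 bp in enhancer-like regions of 3 to 5 tissues, 16881 bp at 2 tissues and 20550 bp at 1 tissue. Within 5 kb of H3K4me3 lay 116 members (31.1%), against 21.9% of all enhancer-like regions with a gap. That share was 26.0% at 3 to 5 tissues, 24.6% at 2 and 20.9% at 1. At the extremes, 32 members (8.58%) lay within 1 kb, against 6.94% at 3 to 5 tissues, 6.85% at 2 and 6.20% at 1. Another 15 members lay beyond 100 kb. Within 100 kb lay 96.0% of members, against 95.1% at 3 to 5 tissues, 92.2% at 2 and 88.4% at 1.

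The same order was seen in each H3K4me3 map. For the 369 members with a gap in all 15 libraries, the median gap per library ran from 13.3 kb (liver replicate 2) to 24.5 kb (skeletal muscle replicate 1). It ran from 21.6 to 37.0 kb in regions of 3 to 5 tissues and from 32.4 to 55.0 kb in regions of 1 tissue. Averaged over tissues, the medians were 19.3 ± 2.94 kb in members, 29.3 ± 3.87 kb at 3 to 5 tissues and 44.8 ± 5.47 kb at 1 tissue (SD, n = 8 tissues each). In all 15 libraries the members had the smallest median of these 3 classes.

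The median log10 gap of members minus that of regions in 3 to 5 tissues was -0.182 ± 0.0209 (SD over 8 tissues), a ratio of 0.658. Against regions in 1 tissue it was -0.366 ± 0.0270, a ratio of 0.430. The tissues share the same regions and many of the same H3K4me3 peaks, so the 8 values are not independent, and their SD covers only the spread between H3K4me3 maps. Long regions reach closer to their neighbours. Among regions within the quartiles of the members' length the difference from 3 to 5 tissues was -0.0861, a ratio of 0.820. Against 1 tissue the difference among such regions was -0.323, a ratio of 0.476. The members also lay in more densely acetylated surroundings, with a mean of 7.34 catalogue regions within 50 kb against 6.48 at 3 to 5 tissues and 5.13 at 1 tissue, and its part in the gap was not tested.

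**Figure D3:**
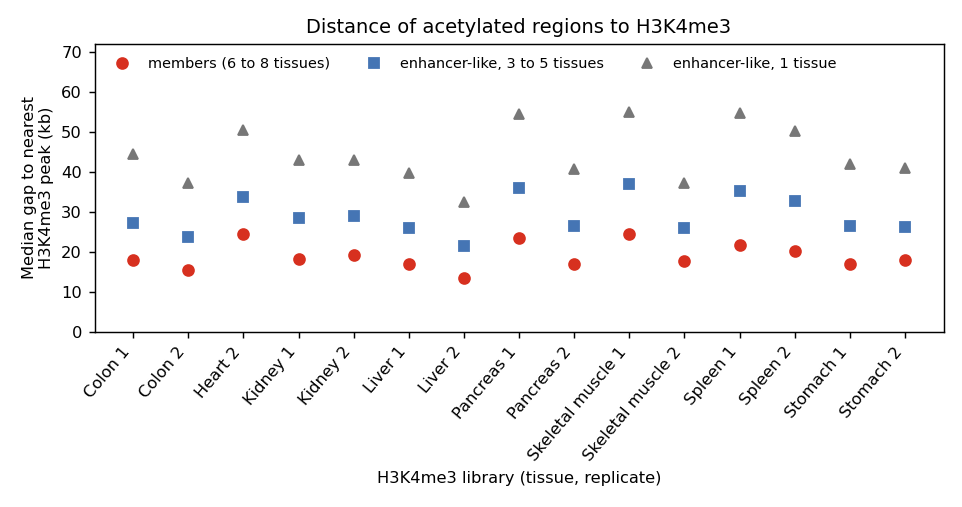
Median gap in kb (y axis) from acetylated regions to the nearest peak of each of the 15 H3K4me3 libraries (x axis), for members, for enhancer-like regions in 3 to 5 tissues and for those in 1 tissue. Members are lowest in every library, between 13.3 and 24.5 kb, and regions in 1 tissue highest, between 32.4 and 55.0 kb.

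The H3K4me3 regions next to members were themselves described by their breadth. H3K4me3 peaks of all libraries merged into 35161 regions. The nearest of these was marked by H3K4me3 in all 8 tissues for 128 of 373 members (34.3%), against 31.4% of all enhancer-like regions. It was acetylated in all 8 tissues also for 128 members (34.3%), against 22.3% of all enhancer-like regions and 25.6% of those in 3 to 5 tissues. The shares of members and of all enhancer-like regions were thus farther apart for acetylation of the neighbouring region than for its methylation, and no test was made of either.

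Single regions span the whole range. The nearest member to H3K4me3 lay 23 bp from it on chromosome 19, from 45664919 to 45666428, lacked liver and skeletal muscle and was weak, with a median percentile of 13.3. The next lay at 58 bp on chromosome 1, from 202072645 to 202073531, and lacked pancreas and spleen. The neighbouring H3K4me3 regions were marked in 8 and 7 tissues, so that both members bordered broadly methylated regions.

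The members farthest from any H3K4me3 peak were all found in 7 tissues. A region on chromosome 10 from 93453423 to 93455278 had a gap of 342152 bp, and its colon libraries both had peaks, which did not overlap each other. A region on chromosome 16 from 66491125 to 66494263 had a gap of 341933 bp and a median percentile of 71.1, with a peak in 15 libraries. A region on chromosome 1 from 40895932 to 40897745 had a gap of 317991 bp, lacked spleen, and ranked as high as the 94.7th percentile in kidney replicate 1. Each of the 3 had a peak in at least 1 library of the missing tissue.

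Within members, the position of strongest acetylation was compared between libraries by peak summits, whose positions the choice of members did not use. The distances are between overlapping peaks, so they are bounded by peak extents, which the choice did use. Between overlapping peaks of different tissues the summits of members lay a median of 207 ± 8.99 bp apart, and between replicates of 1 tissue 177 ± 23.2 bp (SD, n = 8 tissues each). The difference was 30.7 ± 26.7 bp, above 0 in 7 of 8 tissues (two-sided exact permutation test by sign flips, p = 0.0312, adjusted p = 0.0391). Each median between tissues entered the values of both tissues, and the tissues share the same regions. The 8 values are thus not independent, though the sign flips treat them so. This limit holds also for the promoter-like regions and the contrast. In colon the summits of members lay 216 bp from those of other tissues and 148 bp from those of the other replicate, the widest contrast. In heart they lay 207 bp from those of other tissues and 216 bp from those of the other replicate, the single tissue in which other tissues were nearer.

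Promoter-like regions of the same breadth had tighter summits, 125 ± 7.96 bp between tissues and 110.5 ± 15.4 bp between replicates (SD, n = 8 each). Their difference of 14.03 ± 12.9 bp was above 0 in 7 of 8 tissues (same exact test, p = 0.0234, adjusted p = 0.0391). The members' difference exceeded it by 16.7 ± 19.2 bp, in 6 of 8 tissues (same exact test, p = 0.0469, adjusted p = 0.0469). Adjusted over these 3 tests alone, each p is 0.0469. The calls are near the threshold: with the distance divided by the mean length of the peaks, adjusted p was 0.146 for members, 0.146 for promoter-like regions and 0.203 for the contrast. All 3 calls were also lost (adjusted p 0.0521 to 0.125) without colon replicate 1, liver replicate 2, pancreas replicate 1, stomach replicate 2 or either skeletal muscle or spleen library, and without colon replicate 1 the contrast was 9.40 bp.

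Summits were also compared directly between members and promoter-like regions. Between replicates of 1 tissue, summits lay 66.2 bp (SD 14.9, n = 8) farther apart in members than in promoter-like regions, in 8 of 8 tissues (the same exact test, p = 0.00781, not adjusted, and the lowest that 256 sign patterns can give). As a share of mean peak length the distance was 23.8 ± 4.82% in members and 12.2 ± 2.82% in promoter-like regions, 11.7 ± 2.67 points apart in 8 of 8 tissues (same exact test, p = 0.00781, not adjusted). This comparison was added after the values had been seen, so its p-values give no separate support. The strongest peaks of members also ranked lower in their lists than those of promoter-like regions. The part of rank in summit distance was not tested. Enhancer-like regions of 3 to 5 tissues lay between, with 179 ± 10.3 bp between tissues and 155 ± 13.5 bp between replicates (SD, n = 8).

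**Figure D4:**
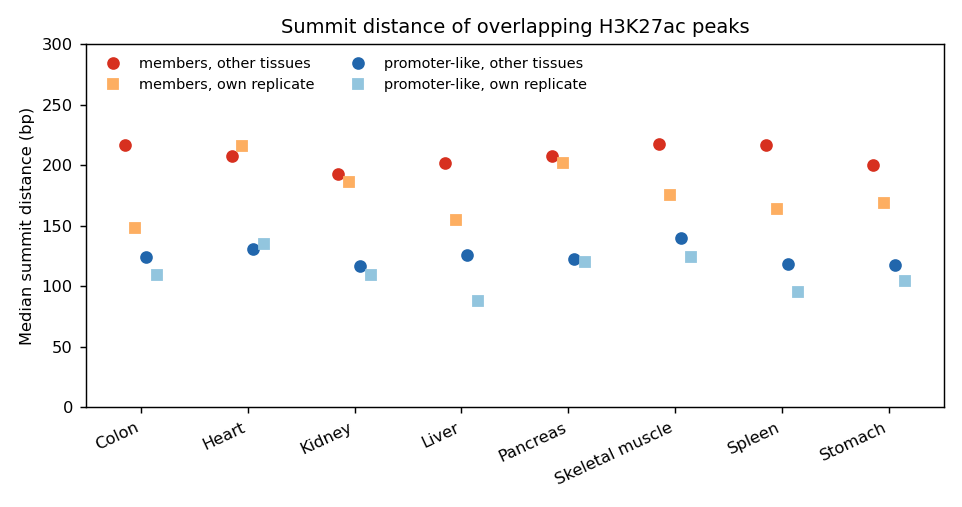
Median distance in bp (y axis) between summits of overlapping H3K27ac peaks per tissue (x axis), against libraries of other tissues (circles) and against the tissue's own other replicate (squares), in members and in promoter-like regions of 6 to 8 tissues. The members' values lie above the promoter-like ones in all 8 tissues, and heart is the single tissue whose own replicate lies farther away than other tissues (216 against 207 bp in members).

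The members were unevenly spread over chromosomes. Chromosome 11 carried the most, 37 (9.81%), against 5.01% of enhancer-like regions in 1 to 5 tissues and 5.31% of promoter-like regions of 6 to 8 tissues. Chromosome 10 carried 32 members (8.49%, against 5.39% of enhancer-like regions in 1 to 5 tissues), chromosome 12 carried 28 (7.43%, against 5.38%) and chromosome 22 carried 16 (4.24%, against 2.57%). Chromosomes 3, 6 and 13 were poor in members, with 5 (1.33%, against 4.63%), 7 (1.86%, against 5.27%) and 6 (1.59%, against 3.75%). Chromosome 22 was also rich in promoter-like regions, with 6.76% of them, whereas chromosome 11 was not.

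Set against local enhancer number, chromosome 11 had 17.9 members per 1000 enhancer-like regions of 1 to 5 tissues, chromosome 22 had 15.2 and chromosome 10 had 14.4. Chromosome 3 had 2.62 and chromosome 6 had 3.23. The X chromosome carried 4 members and the Y chromosome 1. Another 15 members (3.98%) lay on sequences outside the assembled chromosomes, against 2.34% of enhancer-like regions in 1 to 5 tissues.

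**Figure D5:**
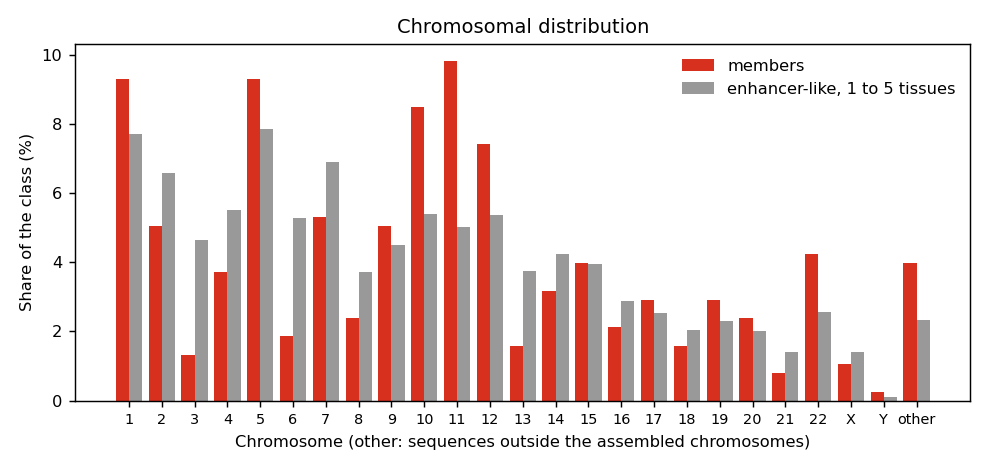
Share of each class (y axis, %) on each chromosome (x axis), for the 377 members and for enhancer-like regions in 1 to 5 tissues. The bars differ most on chromosome 11 (9.81% of members against 5.01%), and members are scarce on chromosomes 3 and 6 (1.33% and 1.86%).

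Members also occurred close to one another. Another member lay within 50 kb of 75 members (19.9%), while 3.93% of all enhancer-like regions and 8.06% of those in 3 to 5 tissues had a member that near. Joined within 50 kb, the members formed 302 single regions, 33 pairs and 3 groups of 3.

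The group of 3 on chromosome 19 spanned 19.7 kb from 45734744 to 45754445, with 9.77 kb covered. Its first pair of members, separated by a short gap, were both found in 8 tissues with peaks in all 16 libraries, and the other one lacked heart and stomach. The group on chromosome 15 spanned 9.22 kb from 62105209 to 62114425, and its members were found in 8, 7 and 6 tissues, with heart missing from those in 7 and 6. The member found in 6 tissues there had at most 5 tissues over any base.

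The group on chromosome 1 spanned 8.58 kb from 198688105 to 198696680. All 3 of its members were found in 6 tissues and lacked colon, together with pancreas in 1 of them and heart in the other pair. They were weak, with median percentiles of 13.5, 15.4 and 3.87. Neighbouring members of this group thus shared the missing colon.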

How the data were processed

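Per the labels' protocols, antibody ab4729 was used for H3K27ac and ab8580 for H3K4me3, followed by TruSeq DNA library preparation. MACS2 2.1.1.20160309, bedtools 2.26, Bowtie 1.1.2 and SAMtools 1.3.1 are named, with no roles, per the submitters' processing notes. Peak names in the deposited lists carry calJac3, taken as the build, and the list of each library was deposited separately, so peaks were not called on pooled replicates. For the use of inputs, nothing is stated in the labels used here. Fold enrichment, a ratio in the authors' deposited lists, was used only to rank peaks within a list. The deposited −log10 q was used as a filter in 1 alternative. The deposited −log10 p and score were not used. The summit position is that of the authors' deposited lists.

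Overlap was 1 bp, and overlapping or touching kept peaks were merged. Gaps run edge to edge, and a neighbouring H3K4me3 region counted for a tissue where peaks of both its replicates overlapped (heart: its 1 library). Summit distances are medians over directly overlapping peaks. Tests were two-sided exact sign-flip permutation tests over tissues, with Benjamini-Hochberg adjustment over 5 planned tests. The 2 of these on gaps to H3K4me3 are not used, since the gaps derive from the positions that chose the members, and summit values are also given adjusted over the other 3. Python 3.11.15, numpy 2.4.6, scipy 1.17.1 and matplotlib 3.10.9 were used, and the code was tested on simulated data. Named regions were the 8 members in all tissues with the highest weakest library, the 3 longest, the 3 farthest from and the 3 nearest to H3K4me3, 1 per missing tissue, and the 3 largest groups. The members, classes and naming rules were chosen with earlier results of these data known. Alternatives were a q filter, shorter lists, stricter or looser overlap, other H3K4me3 rules, central parts of peaks, length-matched regions, the replicate block and leaving out each library.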

Additional observations from a re-analysis of the deposited data

How the results depend on the processing

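Gaps to H3K4me3 are descriptions, and only their sizes are compared across settings. Over 12 other settings, the log10 differences of members ran from -0.301 to -0.0861 against 3 to 5 tissues and from -0.584 to -0.312 against 1 tissue, and without single libraries from -0.239 to -0.168 and from -0.420 to -0.352.

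The number of members depended on list length and on the replicate rule. It was 64 with the 20000 strongest peaks per list, 42 with lists of equal length, 654 where H3K4me3 had to be in both replicates and 1494 where a peak in either library sufficed, against 377, and 377 to 443 without single libraries. The share with a base common to 6 tissues was 93.8% (20000 peaks), 92.9% (equal length) and 82.9% (either library), and it was 63.2% with the central 300 bp of peaks (86.2% to 90.1% without single libraries). The share of missing tissues with a peak in a library was 48.6% (20000 peaks), 47.1% (equal length), 58.0% (replicate overlap of 50%) and 0% by construction (either library), and 44.8% to 54.1% without single libraries. The share within 5 kb of H3K4me3 was 36.7% (20000 peaks), 45.9% (equal length), 24.6% (no H3K4me3 within 1 kb) and 40.7% (central 300 bp), and 29.7% to 33.6% without single libraries.

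The summit differences stayed above 0 but lost their call under several settings (exact tests, adjusted p in brackets). With central 300 bp they were 26.96 bp in members (0.0684), 13.3 bp in promoter-like regions (0.0521) and 13.7 bp for the contrast (0.117). Over mean peak length they were 0.0242 (0.146), 0.0121 (0.146) and 0.0122 (0.203) of that length. The contrast was 16.5 bp with −log10 q of at least 5 (0.0547), 12.1 bp with equal lists (0.0938) and 7.82 bp with either library (0.156). Without single libraries they were 22.8 to 36.1 bp, 9.30 to 16.6 bp and 9.40 to 20.3 bp, and in each 8 of 31 omissions lost the call. A tissue without 1 H3K27ac list has no replicate pair, which leaves 7 tissues. Adjusting over the 3 summit tests alone, chosen after seeing the data, changed none of the calls in any setting. Causes were not tested.

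Same-numbered libraries of different tissues deviated together only weakly (28 tissue pairs, median r 0.0463, from -0.00833 to 0.158, 2 above 0.1). The numbers were thus not taken to pair samples. With the replicate number as a block the differences were -0.185 and -0.370 in log10 gap and 33.2, 15.96 and 17.3 bp in summit distance, with no summit call changed. Depth is unknown, so a region may fail to be called in a tissue for lack of reads.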
